A study of Mus musculus with 45 samples.

Results

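Myc and 8 genes of its dimerisation network, Max, Mxi1, Mxd1, Mxd3, Mxd4, Mnt, Mga and Mlx, were followed through newly transcribed, pre-existing and total RNA in NIH-3T3, a fibroblast line derived from mouse embryos. A probe set was taken for a member when the platform annotation gave it exactly 1 symbol and that symbol was the member's. This gave 21 of the 31390 probe sets with deposited values (control probe sets left out), for 9 of the 13232 genes named in that way. Myc and Max had 1 probe set each, Mxi1, Mxd1, Mnt and Mlx 2 each, Mxd3 3, and Mxd4 and Mga 4 each. Each gene is described by its probe set with the highest mean over all 45 arrays, and the other probe sets are given beside it.

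Myc is a transcription factor that binds DNA as a dimer with Max, at a short palindrome called the E-box, and drives genes of growth and division. The Mxd proteins (Mxd1, Mxi1, Mxd3 and Mxd4) and Mnt compete for Max and bring Sin3 co-repressors to the same sites, Mga pairs with Max within a repressive Polycomb-type complex, and Mlx pairs with Mnt, some Mxd proteins and the glucose-responsive Mondo proteins. In fibroblasts Myc is a textbook early response gene: its RNA appears soon after growth factors arrive, and it is short-lived.

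The 45 arrays fall into 11 groups, and the RNA fractions were separated after a pulse of 4-thiouridine (4sU), a uridine analogue that cells build into new RNA. Total RNA was measured before and after 1 h and 2 h of actinomycin D (5 µg/ml), which blocks transcription (3 arrays each). Newly transcribed, 4sU-carrying RNA was measured after 15 min (500 µM, 3 arrays), 30 min (500 µM, 9 arrays) and 60 min (200 µM, 3 arrays), and in another 60 min experiment (200 µM, 3 arrays) that the labels call 2F without explaining the name. Total RNA of the 30 min (9 arrays), 60 min and 2F 60 min experiments (3 arrays each) and unlabelled, pre-existing RNA of the first 60 min experiment (3 arrays) complete the set. The word mock in the labels of the labelling groups is not explained there either. All groups came from untransfected cells at passage 5 to 15, plated at 40% density 24 h earlier and at about 80% when fresh warm medium with 4sU or actinomycin D was given.

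Values are GCRMA intensities as deposited, analysed on the log2 scale. A change was called when limma gave an adjusted p below 0.05 (Benjamini-Hochberg over all probe sets tested in that fit) and a log2 fold change of at least 1, which is a 2-fold difference. A probe set was tested where its mean over the arrays of the fit was at least log2 5, an intensity of 32. The arrays of each fraction are scaled alike, so a level in new RNA is a share of the new RNA and not an amount. In these bulk samples, fewer cells with a transcript and less of it per cell cannot be told apart.

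Several arrays stood apart from their groups. The lowest median correlation of an array with its group was 0.943 for new RNA of the first 60 min experiment (replicate 1) and 0.963 for its total RNA (replicate 2), against 0.979 or more in the other total RNA groups and 0.964 or more in the other new RNA groups. The 9 arrays of total RNA at 30 min correlated at 0.993 to 0.997 in 9 pairs, formed by replicates 1, 4 and 7, 2, 5 and 8, and 3, 6 and 9, and at 0.969 to 0.986 in the other 27 pairs. For new RNA at 30 min these ranges were 0.986 to 0.995 and 0.958 to 0.991. The 9 arrays may therefore hold fewer than 9 independent samples, in which case p-values that use them are too small. Nothing in the labels says that replicates were separate cultures, so p-values throughout reflect how far arrays of a group differ, a spread that could be technical. Across probe sets, pre-existing over total RNA fell along a line with new over total RNA when 2F total RNA was used, with Pearson's r of -0.633 for 2F new RNA and -0.482 for new RNA of the first 60 min experiment. With total RNA of the first 60 min experiment, to which the labels assign the pre-existing RNA, r was 0.0076 and -0.088. Whether total RNA arrays of the 2 experiments were exchanged was not tested: the labels were kept, and every 60 min and 2F value that uses total RNA rests on them. Fibroblast identity was checked with 10 markers, all of which had a mean of at least log2 7. The 8 epithelial, leukocyte, endothelial and muscle markers with a 1-symbol probe set in the deposited values were all below log2 5. The other listed markers of these cell types had no such probe set there and were not checked.

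The E-box CACGTG, which Myc-Max and Mxd-Max dimers bind, is present in the promoters of 3 of the 8 members with a promoter entry, Mxd4, Mnt and Mlx. The letters were searched in the 250 bases before each start in the RefSeq promoters of build GRCm38.p6, where the palindrome reads alike on both strands. Across all 32851 promoters of that table, 6.02% hold it, and the 8 members have 10 promoters in it. The 3 stretches are shown with 30 bases on each side of the E-box, which is in capitals. A match is a description of the letters and not evidence of binding.
Mxd4 (chr5:34187894-34187959, minus strand): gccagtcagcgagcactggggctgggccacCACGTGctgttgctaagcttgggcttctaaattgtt
Mnt (chr11:74830771-74830836, plus strand): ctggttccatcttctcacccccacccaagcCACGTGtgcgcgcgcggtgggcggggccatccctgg
Mlx (chr11:101087220-101087285, plus strand): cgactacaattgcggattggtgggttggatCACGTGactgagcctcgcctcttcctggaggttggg
The E-box begins 219 bases before the start in Mxd4, 123 bases before it in Mnt and 40 bases before it in Mlx.

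Signal above the filter came from 8 of the 9 genes in at least some groups. Mxd1, a repressor linked to differentiation, gave none: its leading probe set lay between intensities of 8.68 and 24.8 on all 45 arrays and its other probe set between 7.12 and 20.2, so neither entered any test. Mxi1 and Mga were at or above an intensity of 32 on all 45 arrays, Mxd4 on 43, Myc, Mnt and Mlx on 42, Mxd3 on 35 and Max on 29. For Myc and Mnt, the 3 arrays below it were those after 2 h of actinomycin D. The second Mnt probe set, 2 of the 4 for Mga, 1 of the 3 for Mxd3 and 3 of the 4 for Mxd4 had means below log2 5 and are not tested further.

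**Figure D1:**
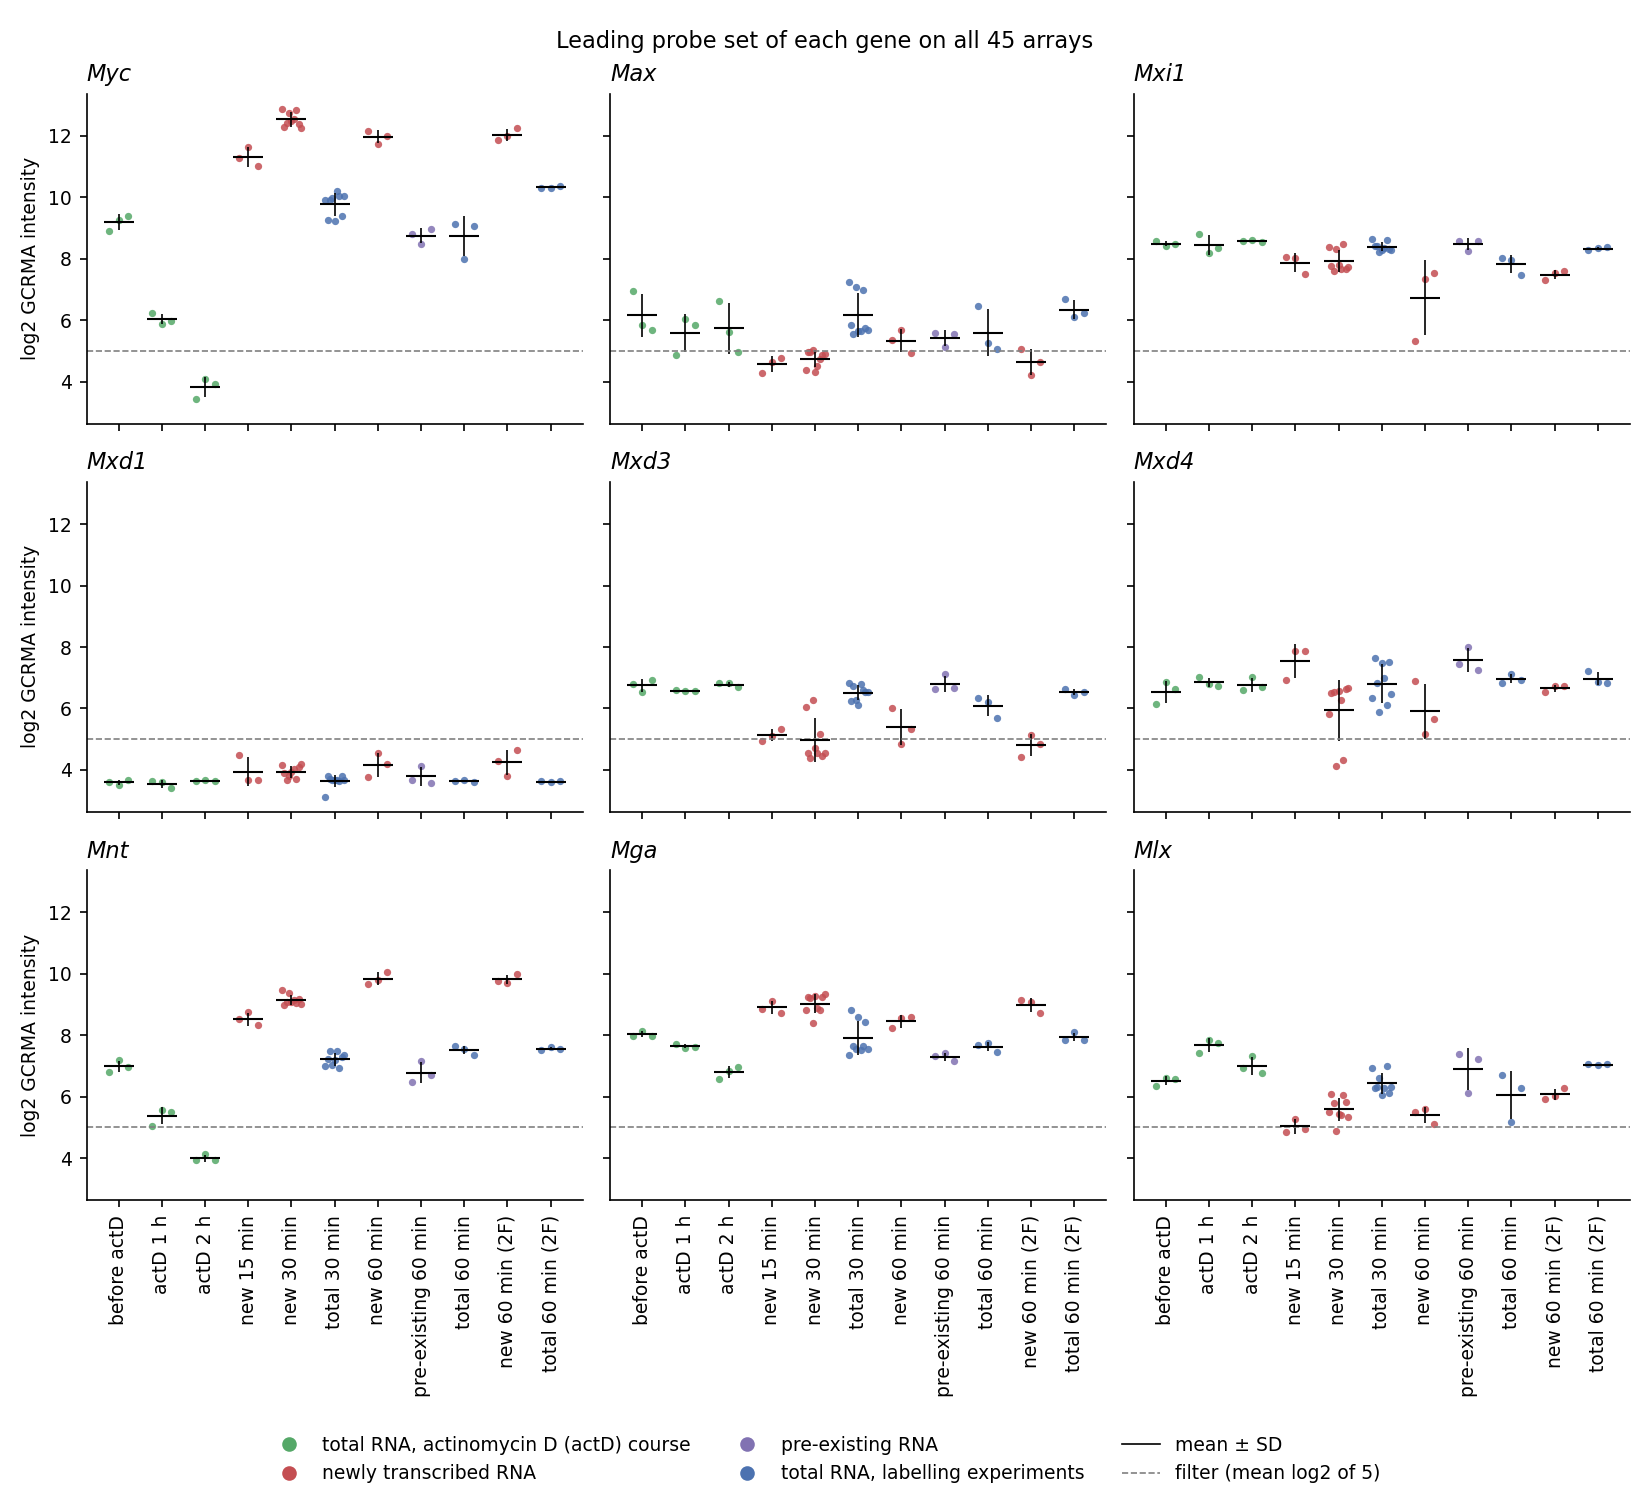
Each panel plots the leading probe set of 1 gene, with the log2 GCRMA intensity on the vertical axis and the 11 groups along the horizontal axis. Each point is 1 array, horizontal bars are group means, vertical lines are the SD, and the dashed line is the filter at log2 5. Myc and Mnt are high in all new RNA groups and low after actinomycin D, and Mxd1 stays below the filter on every array.

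Across the 11 groups, the mean Myc level ran from log2 3.81 ± 0.33 (SD, n = 3) after 2 h of actinomycin D to 12.54 ± 0.24 (SD, n = 9) in new RNA at 30 min. The order from the top was new RNA at 30 min, 2F 60 min, 60 min and 15 min, then total RNA at 2F 60 min and at 30 min, total RNA before actinomycin D, pre-existing RNA, total RNA at 60 min, and actinomycin D at 1 h and 2 h. Neighbouring groups overlapped for new RNA at 60 min with 2F 60 min, and along the run from total RNA at 30 min through before actinomycin D and pre-existing RNA to total RNA at 60 min. Mnt, the broadly expressed repressor of the network, ran from 4.00 ± 0.11 (SD, n = 3) after 2 h of actinomycin D to 9.84 ± 0.21 (SD, n = 3) in new RNA of the first 60 min experiment. Its 4 new RNA groups were again on top, and the 60 min and 2F 60 min groups overlapped with each other. Mga, the scaffold that joins Max to a Polycomb-type complex, had a narrower range, from 6.80 ± 0.20 (SD, n = 3) after 2 h of actinomycin D to 9.03 ± 0.31 (SD, n = 9) in new RNA at 30 min.

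The remaining partners showed the opposite order or little order. Max, the shared partner, was lowest in new RNA at 15 min (4.58 ± 0.25, SD, n = 3) and highest in total RNA at 2F 60 min (6.35 ± 0.30, SD, n = 3), and each group overlapped with its neighbour in the order. Mxd3, a repressor of proliferating cells, was lowest in new RNA at 2F 60 min (4.80 ± 0.36, SD, n = 3) and highest in pre-existing RNA (6.81 ± 0.27, SD, n = 3). Mlx had its lowest mean in new RNA at 15 min (5.03 ± 0.23, SD, n = 3) and its highest after 1 h of actinomycin D (7.68 ± 0.22, SD, n = 3). Mxi1, a Max-binding repressor, varied between 6.73 ± 1.22 in new RNA of the first 60 min experiment and 8.57 ± 0.03 after 2 h of actinomycin D (SD, n = 3 each). Mxd4, a repressor of resting and differentiating cells, ran from 5.90 ± 0.89 in new RNA of the first 60 min experiment to 7.57 ± 0.39 in pre-existing RNA (SD, n = 3 each). Neighbouring groups overlapped throughout the order of Mxi1, Mxd3 and Mxd4. Over the 11 group means, Pearson's r with Myc was 0.968 for Mnt and 0.889 for Mga, and -0.302 for Mxd4, -0.455 for Max, -0.644 for Mxi1, -0.736 for Mlx and -0.752 for Mxd3. These correlations describe 11 groups that share cell line, platform and scaling, and they carry no test.

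Stopping transcription removed Myc RNA fastest, Mnt RNA next and Mga RNA more slowly, while Max, Mxi1, Mxd3 and Mxd4 did not pass the test. Myc had intensities of 481.6, 614.9 and 676.9 before actinomycin D, 74.5, 59.4 and 63.2 after 1 h, and 10.9, 16.9 and 15.1 after 2 h. The 3 time points did not overlap. Mnt had 111.1, 145.0 and 126.0 before, 33.4, 47.6 and 45.1 after 1 h, and 15.4, 17.6 and 15.3 after 2 h, again without overlap. Mga had 253.6, 284.8 and 253.9 before, 211.8, 192.9 and 197.6 after 1 h, and 96.0, 115.3 and 125.5 after 2 h, and these too were separate at each time.

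After 1 h, 3 of the 8 members tested were called, 2 lower and 1 higher, where 6.15% of all 15060 probe sets tested were called in either direction (3.58% lower, 2.57% higher). Myc fell by 3.16 ± 0.19 on the log2 scale (SE, adjusted p = 1.41e-05, limma), an 8.95-fold difference. Mnt fell by 1.61 ± 0.16 (SE, adjusted p = 2.21e-04, limma), and Mga showed -0.39 ± 0.12 (SE, adjusted p = 0.0303, limma), short of the 2-fold threshold. Mlx, the partner of the Mondo proteins, rose by 1.17 ± 0.17 (SE, adjusted p = 0.00116, limma), with 173.5, 230.8 and 216.7 after 1 h against 81.4, 97.9 and 95.7 before. The other Mlx probe set showed 0.52 ± 0.14 (SE, adjusted p = 0.016, limma) and was not called, so the 2 probe sets share the sign but not the call. The median change of the 8 members was -0.29, against 0.09 over all probe sets tested.

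After 2 h, 3 of 8 were called, all lower, with 9.96% of all probe sets called and 9.42% called lower. Myc stood 5.38 ± 0.19 below its starting level on the log2 scale (SE, adjusted p = 1.08e-07, limma). Its 2 h intensities were below 32, where the scale flattens, so the size of this fall is less certain than its presence. Mnt was lower by 2.98 ± 0.16 (SE, adjusted p = 7.24e-07, limma), also with 2 h intensities below 32, and Mga by 1.24 ± 0.12 (SE, adjusted p = 3.81e-05, limma). The second Mga probe set did not follow, at -0.25 ± 0.18 (SE, adjusted p = 0.308, limma). Mlx was at 0.49 ± 0.17 (SE, adjusted p = 0.0454, limma) and no longer met the fold threshold. Between 1 h and 2 h, 2 of 8 members were called, both lower (9.6% of all probe sets were called, 7.32% lower): Myc at -2.22 ± 0.19 and Mnt at -1.37 ± 0.16 (SE, adjusted p = 3.51e-05 and 1.80e-04, limma).

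The members that did not pass had narrow intervals in 3 cases and a wide one in the fourth. At 2 h the 95% interval of the log2 change ran from -0.26 to 0.41 for Mxi1, from -0.24 to 0.29 for Mxd3 and from -0.20 to 0.64 for Mxd4. For Max it ran from -1.48 to 0.62, because its replicates spread widely, at 99.0, 48.5 and 31.4 after 2 h against 124.5, 57.3 and 51.5 before.

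**Figure D2:**
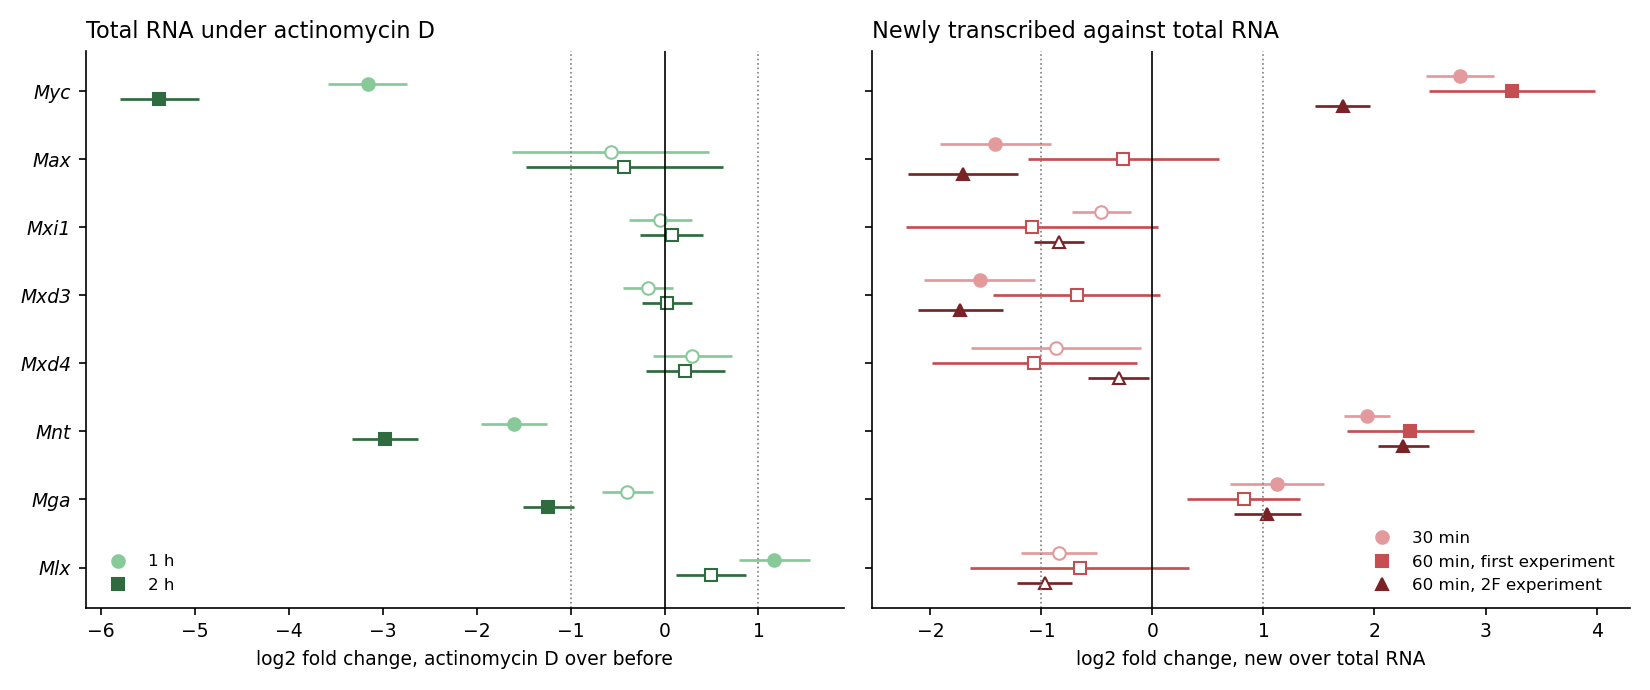
The left panel plots log2 fold changes of actinomycin D over before, at 1 h and 2 h, and the right panel those of new over total RNA in 3 experiments, for the 8 genes tested. Points are limma estimates, lines their 95% intervals, filled points are called, open points are not, and dotted lines mark a 2-fold difference. Myc, Mnt and Mga lie left of 0 in the left panel and right of 0 in the right one.

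New RNA held a larger share of Myc, Mnt and Mga, and a smaller share of Max and Mxd3, than total RNA of the same 30 min experiment. Myc had intensities from 4913 to 7614 in new RNA (median 5724, 9 arrays), against 595.2 to 1182 in total RNA (median 967.2, 9 arrays). Mnt ranged from 502.7 to 718.3 in new RNA (median 542.0), against 121.1 to 181.0 in total RNA (median 151.1). Neither gene's fractions overlapped. Mga had 335.4 to 647.6 (median 598.6) in new RNA and 163.1 to 456.5 (median 200.7) in total RNA, and these ranges did overlap.

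Of the 8 members tested at 30 min, 5 were called, 3 higher and 2 lower, in a comparison in which 49.3% of 16044 probe sets were called (23.7% higher, 25.6% lower). The log2 fold change was 2.77 ± 0.15 for Myc, 1.93 ± 0.10 for Mnt and 1.12 ± 0.20 for Mga (SE, adjusted p = 1.40e-12, 8.98e-13 and 3.93e-05, limma). A second Mga probe set gave 1.27 ± 0.09 (SE, adjusted p = 8.70e-11, limma). The log2 fold change of Max was -1.42 ± 0.24 and that of Mxd3 -1.56 ± 0.24 (SE, adjusted p = 1.90e-05 and 5.55e-06, limma). Max was at 19.9 to 32.7 in new RNA (median 29.4), against 46.6 to 152.6 in total RNA (median 53.3), so its new RNA level lies at the edge of detection and the fold is uncertain. Mxd3 was likewise mostly below 32 in new RNA, at 20.8 to 76.9 (median 23.4), against 69.4 to 113.0 in total RNA (median 93.5). Its second probe set was also lower in new RNA, by 1.02 on the log2 scale (SE 0.15, adjusted p = 4.48e-06, limma). Mxd4, at -0.87, Mlx, at -0.84, and Mxi1, at -0.46, were lower in new RNA too but short of 2-fold. Each had an unadjusted p below 0.05 by limma. With quantile normalisation Mxd4 and Mlx were also called lower (adjusted p = 0.0146 and 2.37e-05, limma).

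The first 60 min experiment gave the same sides for Myc and Mnt with larger errors. Myc had 4630, 3425 and 4118 in new RNA, against 562.8, 254.2 and 540.2 in total RNA. Mnt had 811.8, 884.9 and 1076 in new RNA, against 199.9, 188.9 and 164.3 in total RNA. Both genes were called, Myc at 3.24 ± 0.33 and Mnt at 2.32 ± 0.26 (SE, adjusted p = 1.33e-04 and 1.59e-04, limma), the only 2 of 8 members, with 39.5% of 15411 probe sets called (17.7% higher). Mga was at 0.82 ± 0.23 (SE, adjusted p = 0.015, limma), short of the fold threshold, and its second probe set at 1.17 ± 0.39 (SE, adjusted p = 0.0323, limma). The second Mxd3 probe set, at -1.23 ± 0.44 (SE, adjusted p = 0.0434, limma), was not called without new RNA replicate 2 or 3 or without total RNA replicate 2 or 3. The second Mga probe set was not called without new RNA replicate 1 or 2 or without total RNA replicate 2 or 3.

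In the 2F experiment, 5 of 8 members were called, the same 5 genes on the same sides as at 30 min, with 45.8% of 16205 probe sets called (24% higher, 21.8% lower). Myc had 3761, 4060 and 4875 in new RNA, against 1258, 1275 and 1320 in total RNA. Mnt had 879.4, 834.1 and 1019 in new RNA, against 182.7, 198.3 and 188.0 in total RNA. For both genes the 2 fractions did not overlap.

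The log2 fold changes in the 2F experiment were 1.71 ± 0.11 for Myc, 2.26 ± 0.10 for Mnt and 1.04 ± 0.13 for Mga (SE, adjusted p = 8.32e-07, 1.45e-07 and 6.74e-05, limma). Mga sits on the threshold: without new RNA replicate 1 it was at 0.95, and 3 other omissions of 1 array also left it just under 1. Mga's second probe set was at 0.98 ± 0.09 (SE, adjusted p = 6.58e-06, limma). Max was at -1.71 ± 0.22 and Mxd3 at -1.73 ± 0.17 (SE, adjusted p = 6.60e-05 and 1.06e-05, limma). Max had 33.2, 18.8 and 24.8 in new RNA, against 102.8, 69.1 and 76.1 in total RNA, and Mxd3 had 21.6, 35.3 and 28.5 in new RNA, against 99.4, 85.8 and 92.5 in total RNA. Mlx, at -0.97 ± 0.11, and Mxi1, at -0.84 ± 0.10 (SE, adjusted p = 2.96e-05 and 4.07e-05, limma), were lower in new RNA on every array but short of 2-fold. The second Mxi1 probe set was called lower, at -1.85 ± 0.15 (SE, adjusted p = 2.76e-06, limma), and the second Mlx probe set was at -0.03 ± 0.15 (SE, adjusted p = 0.876, limma).

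With new RNA of each 60 min experiment set against total RNA of the other, as differences of means without a test, Myc was at 1.65 for the first experiment and 3.30 for 2F on the log2 scale. Mnt was at 2.28 and 2.30 in that order, and Mga at 0.52 and 1.34. The size for Myc thus went with the total RNA used, and that for Mnt hardly moved.

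Whether the enrichment of a member differed between experiments was tested directly. Against 30 min, the enrichment of Myc in the 2F experiment was lower by 1.06 ± 0.31 on the log2 scale (SE, adjusted p = 0.042, limma), the only 1 of 8 members called, with 3.81% of 15978 probe sets called (2.19% lower). This call was lost in each of the 6 fits without 1 of the 2F arrays (adjusted p of 0.0673 to 0.116) and with the 30 min arrays averaged in threes (adjusted p = 0.303). Against the first 60 min experiment, Myc was at -1.53 ± 0.38 (SE, adjusted p = 0.0669, limma) and 0 of 8 members were called by limma (0.382% of all probe sets), with 2 at an unadjusted p below 0.05. Myc passed there without total RNA replicate 1 of the first 60 min experiment, at -1.73 (adjusted p = 0.0118, limma), and without its new RNA replicate 2, at -1.65 (adjusted p = 0.041, limma). Between the first 60 min experiment and 30 min, 0 of 8 were called by limma (22.1% of all probe sets), with 1 at an unadjusted p below 0.05, Myc at 0.47 ± 0.31 and Mnt at 0.39 ± 0.20 (SE, adjusted p = 0.244 and 0.126, limma). Max, at 1.15 ± 0.47 (SE, adjusted p = 0.0625, limma), was called there without new RNA replicate 3 (1.35, adjusted p = 0.0446) or total RNA replicate 1 (1.59, adjusted p = 0.0109) of the first 60 min experiment, and Mxi1 without that new RNA array (-1.02, adjusted p = 0.0405). The comparisons with 30 min share its arrays.

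Enrichment in new RNA and loss under actinomycin D come from separate arrays. Over the 14053 probe sets tested in both, the log2 change in new RNA at 30 min and that after 2 h of actinomycin D had a Pearson's r of -0.561, across genes, which are not independent replicates. Of the 294 probe sets at least as enriched as Myc, 46.9% were called lower at 2 h, against 10% of all 14053. Of the 772 at least as enriched as Mnt the share was 44.2%, and of the 1870 at least as enriched as Mga it was 40.6%. Among all 14053, 7 were as low as Myc or lower after 2 h, Myc included. Probe sets called lower in new RNA, as Max and Mxd3 were, had a median change of 0.29 after 2 h of actinomycin D.

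**Figure D3:**
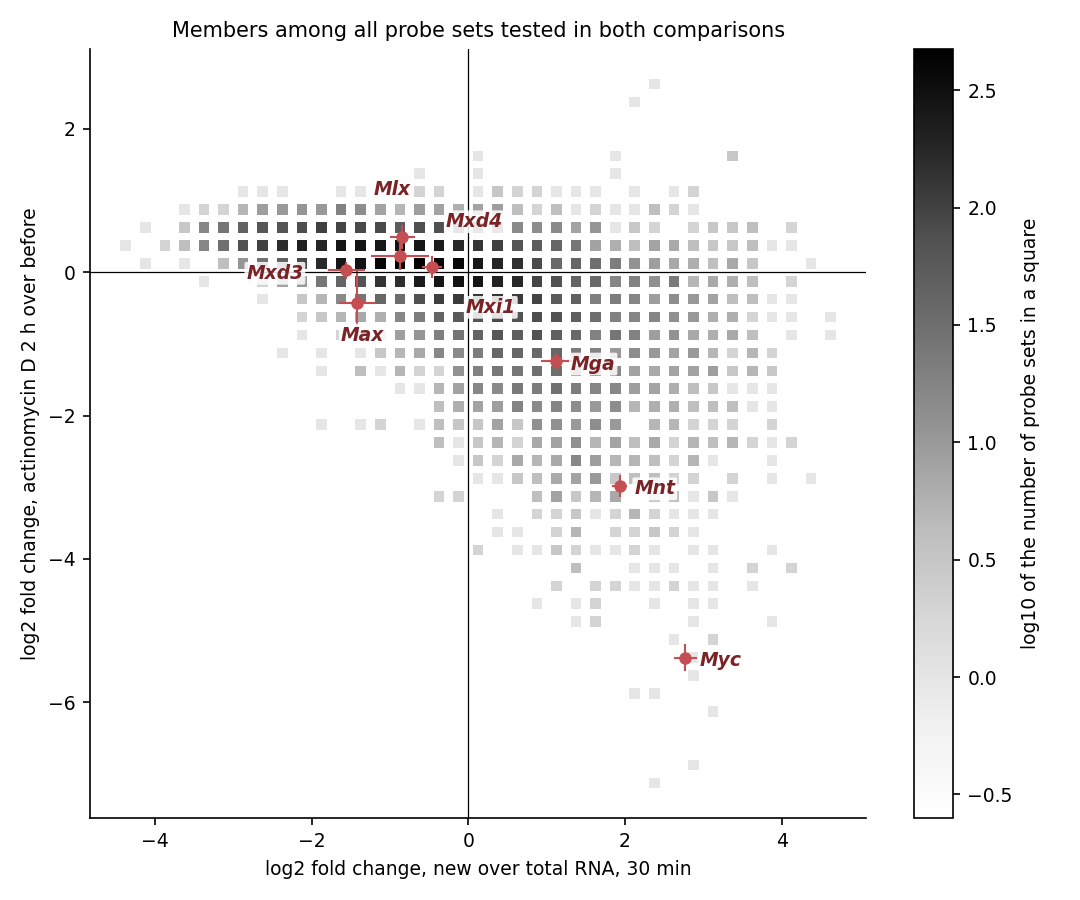
The log2 fold change of new over total RNA at 30 min (horizontal axis) is set against that of 2 h of actinomycin D over before (vertical axis). Grey squares hold 14053 probe sets binned at 0.25, darker where more fall together, and red points are the 8 members with their SE. Myc, Mnt and Mga lie in the lower right corner, and the other members near the horizontal line at 0.

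Pre-existing RNA, which lacks the label, was set against total RNA in 2 ways. Against total RNA of its own 60 min experiment, 0 of 8 members were called by limma (8.82% of 15411 probe sets), with 1 at an unadjusted p below 0.05. Myc had 445.8, 357.4 and 502.2 in pre-existing RNA, against 562.8, 254.2 and 540.2 in total RNA, a log2 difference of 0.02 ± 0.33 (SE, adjusted p = 0.979, limma) with a 95% interval from -0.73 to 0.76. Mnt was at -0.75 ± 0.26 and Mga at -0.33 ± 0.23 (SE, adjusted p = 0.0996 and 0.36, limma). The number of all probe sets called here was 1360, and it was 2684 without total RNA replicate 1 and 777, 879 and 848 without pre-existing replicate 1, 2 and 3.

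Against total RNA of the 2F experiment, a comparison chosen after the spread of the first total RNA had been seen, Myc was the only 1 of 8 members called (3.76% of 15352 probe sets, 3.7% lower). Myc had 445.8, 357.4 and 502.2 in pre-existing RNA, all below 1258, 1275 and 1320 in that total RNA, at -1.58 ± 0.13 (SE, adjusted p = 5.92e-04, limma). Mnt had 88.7, 141.8 and 104.5 in pre-existing RNA, against 182.7, 198.3 and 188.0 in that total RNA, at -0.79 ± 0.17 (SE, adjusted p = 0.0184, limma). Mga had 162.0, 170.5 and 142.2, against 232.7, 273.0 and 232.2, at -0.64 ± 0.11 (SE, adjusted p = 0.0089, limma). Both genes had separate fractions but less than a 2-fold difference. Max was at -0.92 ± 0.19 (SE, adjusted p = 0.0169, limma) and was called, at -1.01 and -1.04, without pre-existing replicate 1 or 2F total RNA replicate 2. These 2 fractions come from different experiments, so experiment and fraction cannot be told apart here.

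The share of Myc in new RNA was higher at 30 min than at 15 min of labelling. The labelling times come from different experiments, and time since fresh medium changes with them. Experiment, labelling time and time since fresh medium therefore cannot be told apart here. Its intensities in new RNA were 2506, 3218 and 2061 at 15 min, 4913 to 7614 at 30 min, 4630, 3425 and 4118 at 60 min, and 3761, 4060 and 4875 in the 2F experiment. At 30 min against 15 min, 2 of the 7 members tested were called (17.1% of 16224 probe sets, 7.59% higher and 9.5% lower), Myc at 1.23 ± 0.18 and Mxd4 at -1.62 ± 0.51 (SE, adjusted p = 6.37e-05 and 0.0185, limma). The Mxd4 call was lost without 15 min replicate 2 or 3 (adjusted p = 0.0764 and 0.1), and its 9 arrays at 30 min ranged from 17.4 to 100.7, against 120.5, 232.7 and 236.0 at 15 min. Mnt, at 366.5, 430.0 and 321.0 at 15 min, differed by less than 2-fold at each step. It was 0.63 ± 0.15 higher at 30 min than at 15 min (SE, adjusted p = 0.00302, limma). At 60 min it was 0.69 ± 0.15 higher than at 30 min (SE, adjusted p = 0.00165, limma). Neither step met the call.

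At 60 min against 30 min, Mxi1 alone among 7 members was called (17.3% of 16224 probe sets, 12.1% lower), at -1.20 ± 0.34 (SE, adjusted p = 0.00988, limma). It had 40.3, 161.8 and 184.9 in new RNA at 60 min, against 194.1 to 355.9 at 30 min. Without replicate 1 at 60 min, the array that stood apart, the difference was -0.50 (adjusted p = 0.108, limma). With the replicate number as a block it was -1.19 (adjusted p = 0.112, limma), the numbers being taken to pair these samples only from the correlation of their deviations. That fit uses 30 min replicates 1 to 3 only, since the others have no same-numbered 60 min array. Replicates 1 to 3 without a block gave the same -1.19 (adjusted p = 0.0978, limma). Myc was lower at 60 min by 0.57 ± 0.18 and in the 2F experiment by 0.51 ± 0.18 (SE, adjusted p = 0.0171 and 0.0421, limma), both short of 2-fold. In the 2F experiment against 30 min, 0 of 7 members were called by limma (10.8% of probe sets), with 3 at an unadjusted p below 0.05, Mnt at 0.67 ± 0.15 (SE, adjusted p = 0.00306, limma).

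Total RNA of the labelled cells was set against total RNA before actinomycin D, which is shared by these comparisons. The groups come from different experiments, and the labelled cells had received fresh medium with 4sU. Experiment, medium, label and time therefore cannot be told apart here. No member was called at 30 min (0 of 8, 0.725% of 15455 probe sets), at 60 min (0 of 8, 8.46%) or in the 2F experiment (0 of 8, 1.86%) by limma, where 1, 3 and 2 of them had an unadjusted p below 0.05. Myc was at 0.58 ± 0.25 at 30 min, -0.46 ± 0.30 at 60 min and 1.13 ± 0.30 in the 2F experiment (SE, adjusted p = 0.274, 0.274 and 0.0546, limma). The 2F arrays, at 1258, 1275 and 1320, were all above 481.6, 614.9 and 676.9 before, and this change was called with quantile normalisation (adjusted p = 0.0455), an offset of 16 (adjusted p = 0.0439) or a fit on all arrays (adjusted p = 0.00513, limma). Fos, an immediate early gene given for reference, was higher in all 3, by 4.92 ± 0.15, 3.61 ± 0.18 and 3.51 ± 0.18 (SE, adjusted p = 7.06e-13, 3.70e-09 and 1.96e-09, limma). Mxi1 at 60 min was at -0.68 ± 0.15, Mnt at 0.54 ± 0.16 and Mxd3 at -0.67 ± 0.20 (SE, adjusted p = 0.00575, 0.0313 and 0.0326, limma), none of them 2-fold. The second Mxi1 probe set was called there, at -1.79 ± 0.60 (SE, adjusted p = 0.0459, limma), and without total RNA replicate 2 it was at -0.97 (adjusted p = 0.274). The second Mxd3 probe set went to 1.12 (adjusted p = 0.0275, limma) without total RNA replicate 1, against 0.63 with it.

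Apparent half-lives were computed in 2 ways. From a called fall under actinomycin D, as time divided by the log2 change, Myc RNA had a half-life of 19.0 min at 1 h (95% interval 16.8 to 21.9) and 22.3 min at 2 h (20.7 to 24.2). Mnt had 37.3 min at 1 h (30.6 to 47.7) and 40.2 min at 2 h (36.0 to 45.6). Mga had 96.7 min at 2 h (79.4 to 123.8). The 2 h values of Myc and Mnt rest on levels below an intensity of 32, and an offset of 16 moves them to 27.8 and 55.7 min, both outside these intervals, which therefore do not cover the error near background. These times are relative to the other RNA on the array, since each array is scaled alike.

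From the share of new RNA, a half-life needs the scale between the fractions, taken from the line of pre-existing over total RNA on new over total RNA across probe sets. In the first 60 min experiment this line had a Pearson's r of -0.088 over 9047 probe sets and set no usable scale. Myc came to 136.0 min on it, to between 45.7 and 629 min in 5 of the 6 fits without 1 array, and to no value without total RNA replicate 1, where the scale turned negative. With total RNA of the 2F experiment, chosen after this was seen, r was -0.633 over 9530 probe sets, and the scale of 0.125 kept to 0.128 and 0.130 at other minimum levels. On that scale Mnt had 45.5 min (34.3 to 58.3), Myc 78.9 min (62.1 to 98.6) and Mga 140.4 min (109.7 to 178.1). The longer ones were 6.50 h for Mxd4, 9.60 h for Mxi1, 10.5 h for Mlx, 17.8 h for Max and 18.0 h for Mxd3, those of Max and Mxd3 resting on new RNA below an intensity of 32. The calculation also takes the total level of each RNA as constant during the 60 min of labelling, which was not tested. Mean total RNA in the 2F experiment and before actinomycin D was log2 10.33 and 9.19 for Myc and 7.57 and 6.98 for Mnt, in different experiments. Intervals cover the spread between arrays, and neither the error of the scale nor a change in total RNA.

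For Mnt and Mga the 2 methods gave overlapping intervals, and for Myc they did not. The cause was not tested. Scaled new RNA made up 41.0% of total RNA for Myc, 59.9% for Mnt and 25.6% for Mga, and pre-existing RNA, scaled on the same line, 28.3%, 48.8% and 54.3%. The sums were 69.3% for Myc, 108.7% for Mnt and 79.9% for Mga, where fractions of 1 sample would add up to the whole. Among all members they ran from 48.4% for Max to 138.1% for Mxd4.

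**Figure D4:**
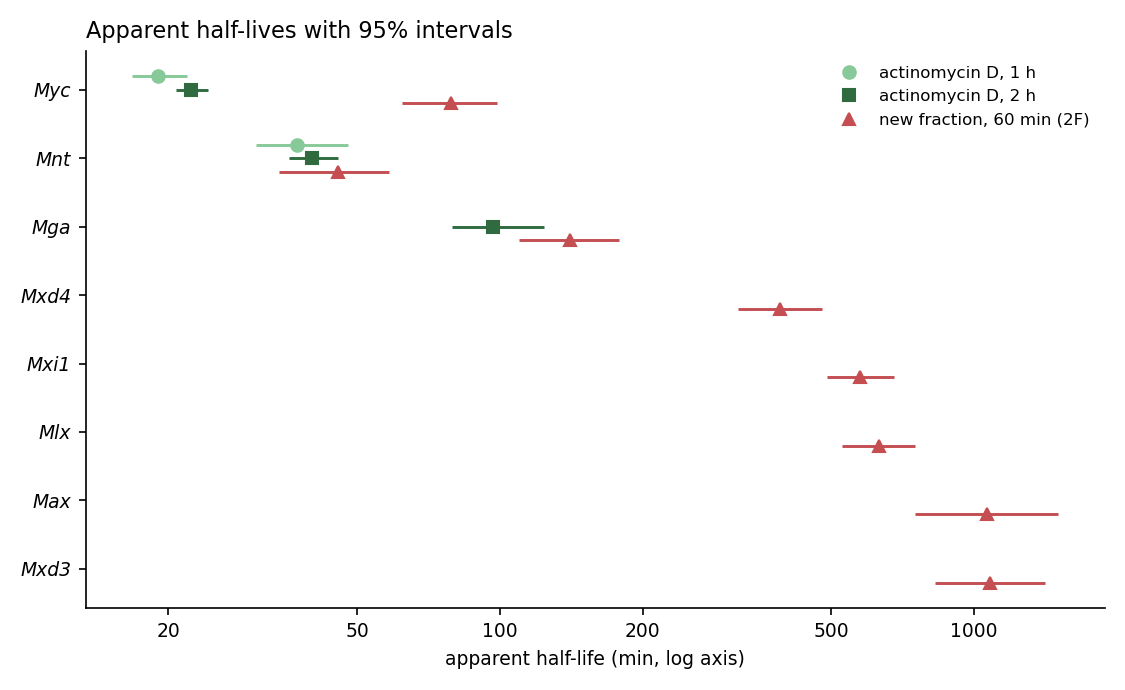
Apparent half-lives in min (logarithmic horizontal axis) are plotted for 8 genes, from actinomycin D at 1 h and 2 h where the fall was called, and from the share of new RNA in the 2F experiment. Lines are 95% intervals from the spread between arrays. Myc lies at 19.0 and 22.3 min under actinomycin D and at 78.9 min by the new RNA share, and the 5 genes at the bottom have values of 6.50 h or more.

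The genes whose 11 group means ran most like those of Myc, among 5426 genes with a mean of at least log2 7, were Dusp6, Socs3, Nuak2, Nfil3 and Ier5, with Pearson's r of 0.990, 0.990, 0.988, 0.988 and 0.987. Dusp6 and Socs3 encode feedback inhibitors of ERK and of cytokine signalling, and Nfil3 a bZIP repressor. For Mnt the closest were Brpf1, a chromatin reader, and Trib2, a pseudokinase (0.993 each), and for Mga Cdk12, a kinase of RNA polymerase II, and Zfp462 (0.982 and 0.981). Mxi1 ran closest to Aldh1l2 and to the endoplasmic reticulum chaperone Hsp90b1 (0.996 and 0.986), Mxd3 to Eef1d and Nt5dc2 (0.992 and 0.989) and Mlx to Pfdn4 and Itgb1 (0.987 and 0.975). Max, with Capzb and Vapb (0.903 and 0.890), and Mxd4, with Vegfd and 4833420G17Rik (0.898 and 0.870), had no such close neighbours. These are likenesses over 11 means and carry no test. Other measures changed some ranks: by Spearman's correlation Brpf1 had rank 151 for Mnt and Ier5 rank 96 for Myc, while Aldh1l2 kept rank 1 for Mxi1. Over the 6 total RNA groups alone, Pearson's r was -0.04 for 4833420G17Rik with Mxd4 and 0.986 for Dusp6 with Myc.

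Of 4 other genes of the network, 3 had a probe set with 1 symbol in the deposited values (Mycn, Mycl and Mlxip). Of these, 2 passed the filter in the labelling fits. Mycn, a paralogue of Myc that is best known from neural progenitors, was higher in new RNA at 30 min by 2.97 ± 0.16, at 60 min by 2.64 ± 0.29 and in the 2F experiment by 2.46 ± 0.10 (SE, adjusted p = 1.14e-12, 1.61e-04 and 1.20e-07, limma). Mycn was also lower in pre-existing RNA, at -1.31 ± 0.29 against total RNA of the first 60 min experiment and -1.33 ± 0.13 against that of the 2F experiment (SE, adjusted p = 0.0197 and 0.00113, limma). Mlxip, the Mondo partner of Mlx, was called higher in new RNA at 60 min and in the 2F experiment, at 1.09 ± 0.32 and 1.16 ± 0.13 (SE, adjusted p = 0.0205 and 3.00e-05, limma).

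Of the cofactors of Myc, Mxd and Mnt, 18 of 22 were tested, and 8 were called in new RNA at 30 min, all lower, where 25.6% of all probe sets were. In the first 60 min experiment 2 were higher and 3 lower (17.7% and 21.8% of all probe sets), and in the 2F experiment 1 was higher and 4 lower (24% and 21.8%). Among the 8 at 30 min were Smarcb1 of the SWI/SNF remodeller, the ATPase Ruvbl2 and the co-repressor Sin3b, at -2.15 ± 0.16, -2.02 ± 0.11 and -1.99 ± 0.10 (SE, adjusted p = 1.22e-10, 1.35e-12 and 8.68e-13, limma). The list's median at 30 min was -0.47, against -0.14 for all probe sets, and after 2 h of actinomycin D 1 of the 18 was called, and lower (9.42% of all). Regulators of Myc protein had 4 of 17 higher and 2 lower in new RNA at 30 min, where 23.7% of all probe sets were higher and 25.6% lower, so the share called higher was near that of all. They had 7 higher and 1 lower in the first 60 min experiment (17.7% and 21.8% of all probe sets). In the 2F experiment 7 were higher and 0 lower by limma (24% and 21.8%). Those higher at 30 min included Usp36, a nucleolar deubiquitinase that stabilises Myc, at 3.30 ± 0.14, and Fbxw7, the ubiquitin ligase subunit that targets it, at 1.69 ± 0.14 (SE, adjusted p = 1.06e-13 and 1.06e-09, limma). After 2 h of actinomycin D, 4 of these 17 were lower (9.42% of all probe sets), among them the kinase Aurka, which shields Myc proteins, at -1.46 ± 0.11, and Axin1, a scaffold of their turnover, at -1.86 ± 0.14 (SE, adjusted p = 4.72e-06 and 7.42e-06, limma).

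RNA-binding proteins of Myc mRNA had 3 of 10 higher and 2 lower in new RNA at 30 min, near the 23.7% and 25.6% of all probe sets. In each 60 min experiment 3 were higher and none lower by limma. Of all probe sets, 17.7% were higher in the first and 24% in the 2F experiment, and 21.8% were lower in each. Zfp36 and Zfp36l1, which bring AU-rich messages to decay, were higher at 30 min by 2.73 ± 0.22 and 1.78 ± 0.11 (SE, adjusted p = 5.14e-10 and 9.69e-12, limma). In total RNA of the 2F experiment against before they were the 2 of 10 called, both higher (1.36% of all probe sets), Zfp36 by 2.47 ± 0.38 and Zfp36l1 by 1.04 ± 0.21 (SE, adjusted p = 9.58e-04 and 0.00798, limma).

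Of the genes that textbooks list as induced by Myc, 36 of 40 were tested, and 8 were higher and 10 lower in new RNA at 30 min, near the 23.7% and 25.6% of all probe sets, with a median of -0.08 against -0.14 for all. In the first 60 min experiment 10 were higher and 1 lower (17.7% and 21.8% of all), with a median of 0.43 against -0.14, and in the 2F experiment 9 were higher and 4 lower (24% and 21.8%), with a median of 0.19 against 0.04. For the difference in enrichment between the first 60 min experiment and 30 min, 12 of 36 were called higher (10.3% of all) and 0 lower by limma, with a median of 0.77 against 0.01. The 2F experiment did not repeat this: against 30 min, 1 of 36 was called, and higher (3.81% of all called), with a median of 0.26 against 0.11. Between the 2F and the first 60 min experiment, 0 of 36 were called by limma (0.382% of all), with a median of -0.27 against 0.10. Cdk4, a cyclin-dependent kinase, and Bop1, a ribosome assembly factor, were at -2.02 ± 0.12 and -2.31 ± 0.18, and Cdc25a, a cell cycle phosphatase, at 1.92 ± 0.23 at 30 min (SE, adjusted p = 7.30e-12, 4.43e-10 and 2.10e-07, limma). After 2 h of actinomycin D, 6 of the 36 were called, all lower (9.42% of all). Id2, a dominant negative helix-loop-helix protein, was at -3.40 ± 0.14 and Fosl1, an AP-1 subunit, at -2.63 ± 0.21 (SE, adjusted p = 2.35e-07 and 9.28e-06, limma).

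Of the genes listed as repressed by Myc, 8 of 11 were tested, and 4 were called in new RNA at 30 min, all higher (23.7% of all probe sets), with a median of 0.91 against -0.14 for all. In each 60 min experiment 4 were also called, all higher (17.7% of all probe sets in the first and 24% in the 2F experiment). Those at 30 min included Klf6, at 3.40 ± 0.15, Gadd45a, a stress gene, at 2.80 ± 0.14, and Cdkn1a, the inhibitor p21, at 1.54 ± 0.27 (SE, adjusted p = 1.04e-13, 7.30e-13 and 3.50e-05, limma). After 2 h of actinomycin D, 4 of the 8 were called, all lower (9.42% of all), with a median of -1.10 against 0.10 for all. Tob1, an antiproliferative gene, was at -2.58 ± 0.23 and Klf6 at -2.45 ± 0.24 (SE, adjusted p = 2.26e-05 and 3.85e-05, limma). All these lists were drawn up from general knowledge with earlier results of these data known, and their counts describe these genes without a test of the list.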

How the data were processed

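The deposited values are GCRMA intensities of 31451 probe sets (61 of them controls, left out here) on 45 Affymetrix arrays. Per the submitters' processing notes the authors used GCRMA, a method that corrects background, normalises arrays to each other and summarises probes. Its version is not given in the sources used here. Per the labels' protocols, RNA was extracted with Trizol and labelled in 1 cycle. Of the 31390 other probe sets, 25031 had 1 symbol in the platform annotation, 690 several and 5669 none. All 21 member probe sets matched RefSeq by Entrez ID.

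The deposited intensities were log2-transformed here without an offset. Groups were compared with limma 3.58.1 (lmFit and eBayes, R 4.3.3) without a block, with a mean of at least log2 5 over the arrays of a fit. A call required a log2 change of 1 or more in size together with p below 0.05 after Benjamini-Hochberg adjustment. The procedure was tested on simulated data. Alternatives were quantile normalisation, an offset of 16, no filter or a filter at log2 7, all arrays in 1 fit, the replicate number as a block, subsets of the 30 min arrays and, where a group had 3 arrays, leaving out each of them. The number of arrays limits the precision.

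Same-numbered arrays deviated together, with every correlation above 0.1, for actinomycin D at 1 h and at 2 h against before, for new and for pre-existing against total RNA of the first 60 min experiment, for new RNA at 60 min against 30 min and for total RNA at 60 min against before. There the numbers were taken to pair the samples, from the data and not from the labels. Correlated deviations alone do not show pairing, and some of these groups come from different experiments. For actinomycin D at 2 h against 1 h the lowest correlation was 0.078.

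All 9 members are named. From each gene list, up to 3 called genes with the largest change and a mean of at least log2 7 could be named in each comparison, and the genes most like a member were ranked by Pearson's r over group means. The members and lists were chosen with earlier results of these data known. The comparison of pre-existing with 2F total RNA, the scale taken from it, the exchange of total RNA between the 60 min experiments and the averaging of 30 min arrays in threes were chosen after seeing the data.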

Additional observations from a re-analysis of the deposited data

Results flagged for a closer look

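The enrichment of Myc in new RNA differed between experiments by a test of the difference itself: in the 2F experiment against 30 min it was at -1.056 on the log2 scale (adjusted p = 0.042, limma). The call was lost in each fit without 1 of the 2F arrays. The 2F experiment used 200 µM 4sU for 60 min and the other 500 µM for 30 min, so dose, time and experiment cannot be told apart.

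Of 42 sets of 9 arrays checked for 1 array far from the rest, 5 held one, where chance gives about 1 in 20, and all 5 concern probe sets with a mean below log2 5. In total RNA at 30 min, a weak Mga probe set was at log2 3.725 on replicate 2, with the next array at 2.725, and another was at 3.478 on replicate 1, with the next at 2.893. The weakest Mxd3 probe set was at 4.805 on replicate 4, with the next at 4.161, and the leading Mxd1 probe set at 3.118 on replicate 1, with the next at 3.639. In new RNA at 30 min, a weak Mxd4 probe set was at 2.803 on replicate 7, with the next at 3.625.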

How the results depend on the processing

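Over 192 member changes (a probe set in a comparison) and 2281 alternatives, 2211 stayed on their side of the threshold, 44 lost the call and 26 gained it. The sign differed in 79 alternatives of 44 changes, all with a reported size of at most 0.62 on the log2 scale and none called either way. No member's call after 1 h or 2 h of actinomycin D against before changed in a fit without 1 array. Without new RNA replicate 1 of the first 60 min experiment, Mxd4 was also called lower in new RNA there, at -1.56 (adjusted p = 0.00188, limma). The filter at log2 7, which tests fewer probe sets, left 1 member called at 1 h (Mlx), 1 at 2 h (Mga) and 0 between 1 h and 2 h. Myc and Mnt, with means below log2 7 over the actinomycin D arrays, were not tested there under this filter. It left 3 called in new RNA at 30 min, 3 in the 2F experiment and 1 for 30 min against 15 min. An offset of 16 left 1 called between 1 h and 2 h. Quantile normalisation, the offset and all arrays in 1 fit each gave 1 called in total RNA of the 2F experiment. For enrichment at 60 min against 30 min, quantile normalisation gave 1. For enrichment in the 2F against the first 60 min experiment, no filter, the filter at log2 7 and all arrays in 1 fit each gave 1. With 30 min replicates 1 to 3 or arrays averaged in threes, 60 min against 30 min had 0 called, and enrichment in the 2F experiment against 30 min had 0 with either and with replicates 4 to 9. The cause was not tested.

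The replicate block left 1 member called for 30 min against 15 min (Mxd4 lost, at -1.27, adjusted p = 0.0534) and 0 for 60 min against 30 min. It gave 1 for enrichment at 60 min against 30 min (Max, adjusted p = 0.0343) and 1 for the 2F against the first 60 min experiment (Myc, adjusted p = 0.038, limma), and changed no other member's call.

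Leaving out 1 array gave 1 to 2 members called for 30 min against 15 min, 0 to 1 for 60 min against 30 min, 0 to 2 for enrichment at 60 min against 30 min, 0 to 0 for the 2F experiment against 30 min, 0 to 2 for the 2F against the first 60 min experiment, and 1 to 2 for pre-existing against 2F total RNA.

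The half-life of Myc was 20.8 min at 1 h with the offset, and at 2 h 23.8 min with quantile normalisation and 27.8 min with the offset. That of Mnt was 45.9 min at 1 h with the offset, and at 2 h 45.8 min with quantile normalisation and 55.7 min with the offset. With the scale of the first 60 min experiment taken at log2 5, its new RNA gave 59.2 min for Myc, 134.1 min for Mnt and 419.1 min for Mga, against 136.0, 277.4 and 822.4 min at log2 7, and that of the 2F experiment gave 216.3, 140.9 and 358.8 min, against 434.3, 290.3 and 706.9 min. Without 1 array, the first experiment gave 45.7 to 629.3 min for Myc, 77.7 to 1290 min for Mnt and 254.7 to 3869 min for Mga over 5 of 6 omissions. Without total RNA replicate 1 the new fraction was negative for all 8 genes, and no half-life exists. On the scale from 2F total RNA, Mga was at 120.7 to 151.4 min without 1 array.

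Counts over all probe sets called also moved. The filter at log2 7 gave 299 against 926 at 1 h, 484 against 1500 at 2 h, 531 against 1446 between them, 4083 against 7916 in new RNA at 30 min, 3446 against 6088 at 60 min, 4049 against 7419 in the 2F experiment, 1400 against 2773 for 30 min over 15 min and 1367 against 2808 for 60 min over 30 min. No filter gave 1704 at 1 h and 2488 at 2 h, and the offset 552 at 1 h. Pre-existing against total RNA had 1360, with 316 under the filter at log2 7, 2145 with no filter and 3015 with all arrays, and against 2F total RNA 577, with 200 and 1805 under these filters. New RNA in the 2F experiment over 30 min had 1760, with 849 under the filter at log2 7, 1020 with replicates 1 to 3 and 1042 with the replicate block. Total RNA over before had 112 at 30 min (43 with replicates 1 to 3, 46 in threes and with the block, 59 under the filter, 64 to 87 without 1 array of before), 1308 at 60 min (643 under the filter, 569 to 2991 without 1 array) and 287 in the 2F experiment (142 under the filter, 472 without it, 181 to 216 without 1 array). Enrichment at 60 min against 30 min had 3533, with 1653 under the filter, 832 with replicates 1 to 3, 1132 in threes and 1906 to 4903 without 1 array. In the 2F experiment against 30 min it had 609, with 272 under the filter, 1045 without it, 962 with all arrays, 373 with replicates 4 to 9, 0 with 1 to 3, 3 in threes and 263 to 332 without 1 array. Against the first 60 min experiment it had 61, with 254 without a filter, 482 with all arrays, 96 with the block and 4 to 1274 without 1 array. Signals near background limit Max, Mxd3 and the 2 h levels of Myc and Mnt.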
